A study of Mus musculus with 12 samples.

Results

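Transthyretin, encoded by Ttr (Entrez gene 22139, protein coding, mouse chromosome 18), was followed across 4 cell types of the mouse immune system on 12 Affymetrix Mouse430_2 arrays. Every probe set that the array's annotation maps to Ttr was taken, which gave 4 probe sets among 45037 on the array and 1 gene among 18193 with a probe set of its own. None of the 4 was annotated to a further gene. Ttr was chosen by its normalized log2 values, whose high level in the Treg arrays was already known, so its levels and differences are given as a description, with no test. The series concerns regulatory T cells that carry the forkhead factor FoxA1 in experimental autoimmune encephalomyelitis (EAE), a disease of mice that serves as a model of multiple sclerosis.

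Each group had 3 arrays, and all cells came from mice of the C57BL/10.RIII strain background. The arrays labelled iFoxA1Treg held FoxA1 regulatory T cells induced with IFN-beta and labelled CD4hi, PD-L1hi. The nFoxA1Treg arrays held cells with the same surface labels, named neuron induced in the sample titles and natural in the cell type field. The Treg arrays held regulatory T cells labelled CD4+, TGFbeta+. The EncT arrays held encephalitogenic T cells, the cells that drive the disease, labelled CD4+. The labels give neither the age and sex of the mice nor the number of animals behind an array. They also do not state whether the replicates of a group are separate animals or cultures, and a p-value here covers only the spread among these arrays, which may be technical.

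Transthyretin is a secreted protein that binds the thyroid hormone thyroxine and also carries retinol by binding the retinol-binding protein Rbp4. The liver supplies it to blood and the choroid plexus of the brain supplies it to cerebrospinal fluid, and pancreatic islet cells make it too. In hepatocytes, FoxA factors (formerly HNF3), Hnf1, Hnf4 and C/EBP factors act on the Ttr promoter and enhancer. In humans, misfolded transthyretin deposits as amyloid.

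The labelled cell types were checked against the genes that define them before Ttr was compared. Cd4, whose surface protein every label names, had a normalized log2 value of 4.24 ± 0.10 in the arrays labelled iFoxA1Treg, 10.44 ± 0.068 in nFoxA1Treg, 10.39 ± 0.057 in Treg and 10.57 ± 0.017 in EncT (n = 3 each, SD). The arrays labelled iFoxA1Treg thus lacked the level of Cd4 that their CD4hi label implies. Their summed macrophage marker level was 21635 to 21940, against at most 551 in any array of the other groups. Their summed B cell marker level was 24696 to 26927, against at most 245 elsewhere. They also had low Xist (2.11 ± 0.85) and high Eif2s3y (9.66 ± 0.13), a pair that tells the sexes apart, with the reverse in the other 9 arrays. Over all probe sets they correlated with the remaining arrays at 0.683 to 0.739 (Pearson), while arrays of the other 3 groups correlated across groups at 0.815 to 0.847. Comparisons with the arrays labelled iFoxA1Treg are therefore given as values of those arrays, and cell makeup, sex and treatment cannot be told apart in them. In Treg, Tgfb1, which encodes the factor named in the label, was 9.88 ± 0.10, beside 9.88 ± 0.27 in EncT. RNA of Cd274, which encodes PD-L1, was lower in nFoxA1Treg, labelled PD-L1hi, than in EncT (limma, adjusted p = 0.0267). Without the arrays labelled iFoxA1Treg that difference was -0.28 and was not called (adjusted p = 0.0552). Foxp3, the defining factor of regulatory T cells, lay below the level used as a filter in nFoxA1Treg (2.55 ± 0.95), Treg (2.77 ± 0.40) and EncT (1.66 ± 1.9). In the arrays labelled iFoxA1Treg all 14 measured regulatory T cell genes, Foxp3 among them, had means above that level. The summed linear level of these 14 genes was nevertheless lower there, at 3431 to 3543, against 6223 to 7733 in the other 9 arrays.

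The brightest Ttr probe set was 1459737_s_at, whose suffix marks probes that can be shared by transcripts of more than 1 gene. In the arrays labelled iFoxA1Treg its normalized log2 values were 3.28, 3.91 and 3.49. In nFoxA1Treg they were 2.26, 3.10 and 2.94. In Treg they were 7.83, 8.51 and 8.02, and in EncT they were 2.55, 2.10 and 2.87. All 3 Treg arrays were high, with replicate 2 the highest, and all 9 other arrays lay below the filter level of 4.05, the log2 value that separates the upper 60% of probe sets by mean. Taken out of the log, the deposited Treg values were 231, 361 and 271, while the 9 other arrays ran from 4.43 to 13.9. In bulk samples such as these, a few cells with much Ttr RNA and many cells with little cannot be told apart, and neither can fewer cells of a type and less RNA per cell.

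The other 3 probe sets were dimmer, and each of them also put every Treg array above all 9 remaining arrays. Probe set 1454608_x_at, whose suffix warns of probes that may cross-hybridise, had 6.22, 6.34 and 5.92 in Treg. Its values were 1.90, -3.42 and 2.62 in the arrays labelled iFoxA1Treg, 3.09, 2.43 and 1.70 in nFoxA1Treg and 2.63, 2.52 and 3.21 in EncT. The lowest Treg array stood 2.70 above the highest EncT array. Probe set 1455913_x_at had 5.28, 5.60 and 5.20 in Treg. It was near the floor elsewhere, at -7.12, -9.26 and -9.28 in the arrays labelled iFoxA1Treg, -1.73, 0.67 and -1.82 in nFoxA1Treg and -8.83, 1.32 and -9.39 in EncT. The deposited log2 values have no offset, so differences among such negative values follow noise at the floor and were also computed as log2(value + 16).

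The fourth probe set, 1451580_a_at, recognises alternative transcripts of a single gene and separated the groups the least. It had 4.07, 3.80 and 4.36 in the arrays labelled iFoxA1Treg, 3.55, 3.81 and 3.63 in nFoxA1Treg, 4.43, 4.56 and 4.54 in Treg and 4.06, 3.79 and 3.86 in EncT. Treg was again the highest group without overlap, although its lowest array was only 0.072 above the highest array labelled iFoxA1Treg. Treg replicate 2 was the highest of the 12 arrays in all 4 probe sets. Over the 9 arrays outside Treg, the pairwise Pearson correlations between the 4 probe sets ran from -0.70 to 0.37 on the log2(value + 16) scale, so the probe sets did not share an order there. These arrays belong to 3 groups, and the correlations are descriptive.

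**Figure D1:**
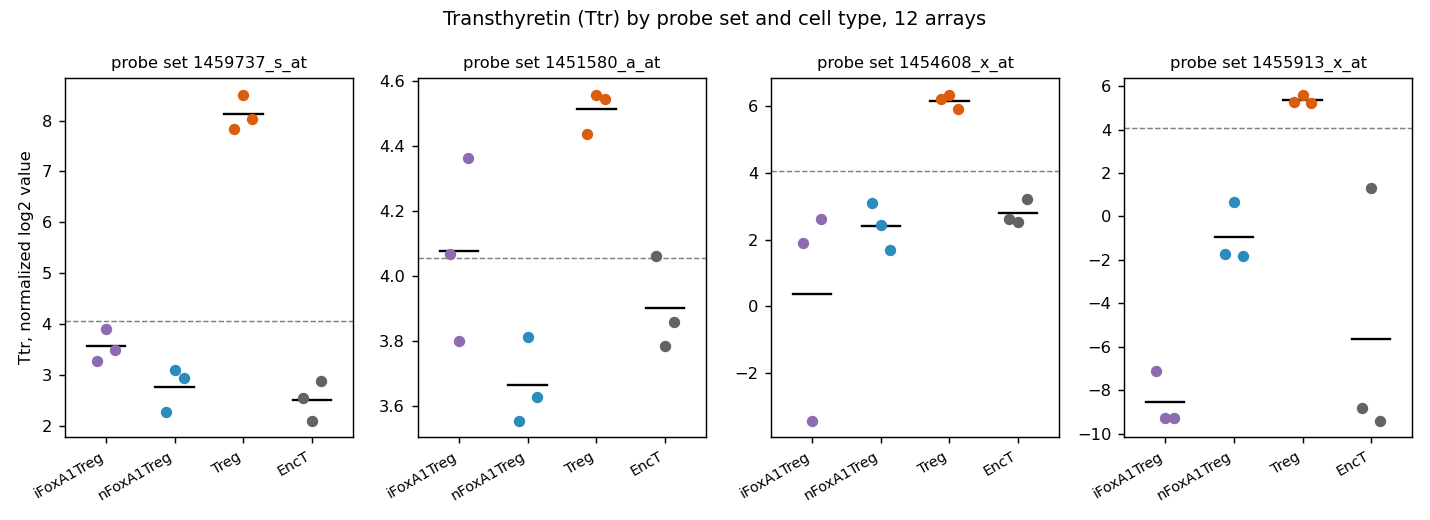
Normalized log2 value of Ttr on each of the 12 arrays, 1 panel per probe set with its own vertical scale. Points are arrays, black lines are group means of 3 arrays and the dashed line is the filter level of 4.05. The 3 Treg arrays are the highest in every panel, and in 1459737_s_at they run from 7.83 to 8.51 while no other array exceeds 3.91.

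On 1459737_s_at the mean Ttr value of the 3 Treg arrays was 8.12 (SD 0.35) and that of the 3 EncT arrays was 2.51 (SD 0.39) in normalized log2, a difference of 5.61, or 49.0-fold. On the log2(value + 16) scale the difference was 3.76, so the fold depends on how values near the floor are treated. The 3 other probe sets gave 1.93 for 1454608_x_at, 1.77 for 1455913_x_at and 0.33 for 1451580_a_at on that scale. The direction was the same in all 4 probe sets and the Treg and EncT arrays overlapped in none, as 33.3% of all tested genes did not, while the size ran from 1.53-fold for 1451580_a_at to 49.0-fold for 1459737_s_at among the 3 probe sets whose group means were above 0.

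nFoxA1Treg lacked the high Ttr level of Treg. Ttr averaged 2.77 ± 0.44 in nFoxA1Treg and 8.12 ± 0.35 in Treg on 1459737_s_at (SD, n = 3 each), a difference of -5.35, or 40.9-fold lower. On the log2(value + 16) scale the 4 differences were -3.68 for 1459737_s_at, -2.02 for 1454608_x_at, -1.77 for 1455913_x_at and -0.44 for 1451580_a_at. No nFoxA1Treg array reached a Treg array in any probe set, and 11.2% of all tested genes had no overlap in this contrast. Across the genome this contrast was nearly flat: with limma, 1 of 12609 genes past the filter was called at an adjusted p under 0.05 (0.00793%), against 468 (3.71%) at an unadjusted p under 0.05. The gene called was Ttr, a call that the choice of Ttr already used. No other gene differed enough between nFoxA1Treg and Treg to pass the adjusted threshold in that fit.

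Between nFoxA1Treg and EncT, Ttr did not separate. The 1459737_s_at means were 2.77 ± 0.44 in nFoxA1Treg and 2.51 ± 0.39 in EncT, a difference of 0.26 with overlapping arrays. On the log2(value + 16) scale the difference was 0.075 for 1459737_s_at, -0.00055 for 1455913_x_at, -0.091 for 1454608_x_at and -0.11 for 1451580_a_at. The sign therefore changed with the probe set, and the arrays overlapped in all 4, where 33.7% of tested genes did not overlap. By the adjusted threshold 19.6% of tested genes differed between nFoxA1Treg and EncT. Both the nFoxA1Treg and the Treg contrast with EncT use the same 3 EncT arrays.

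The arrays labelled iFoxA1Treg held an intermediate level on 1459737_s_at, at 3.56 ± 0.32 (SD, n = 3), and did not overlap with nFoxA1Treg or EncT there. Their difference was 0.79 from nFoxA1Treg, 1.05 from EncT and -4.56 from Treg. On the log2(value + 16) scale it was 0.28 from nFoxA1Treg and 0.36 from EncT. Absence of overlap is common in these contrasts, since 77.7% of all genes did not overlap between the arrays labelled iFoxA1Treg and nFoxA1Treg, 73.4% did not between them and EncT, and 77.7% did not between them and Treg. On 1454608_x_at the difference was -2.04 (-2.035) from nFoxA1Treg and -2.42 from EncT, with overlap in both. Those 2 values rest on iFoxA1Treg replicate 2, at -3.42, and without it, an alternative chosen after seeing the data, they were -0.14 and -0.53. On the log2(value + 16) scale with all arrays they were -0.17 and -0.26. For the same pairs and scale 1455913_x_at gave -0.069 and -0.070, near the floor. Probe set 1451580_a_at gave 0.20 and 0.090, with overlap in both. The order of the 3 groups below Treg was therefore not the same in each probe set, with small differences on 1454608_x_at. By 1459737_s_at it ran iFoxA1Treg, nFoxA1Treg, EncT, with the last neighbouring pair within its spread.

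**Figure D2:**
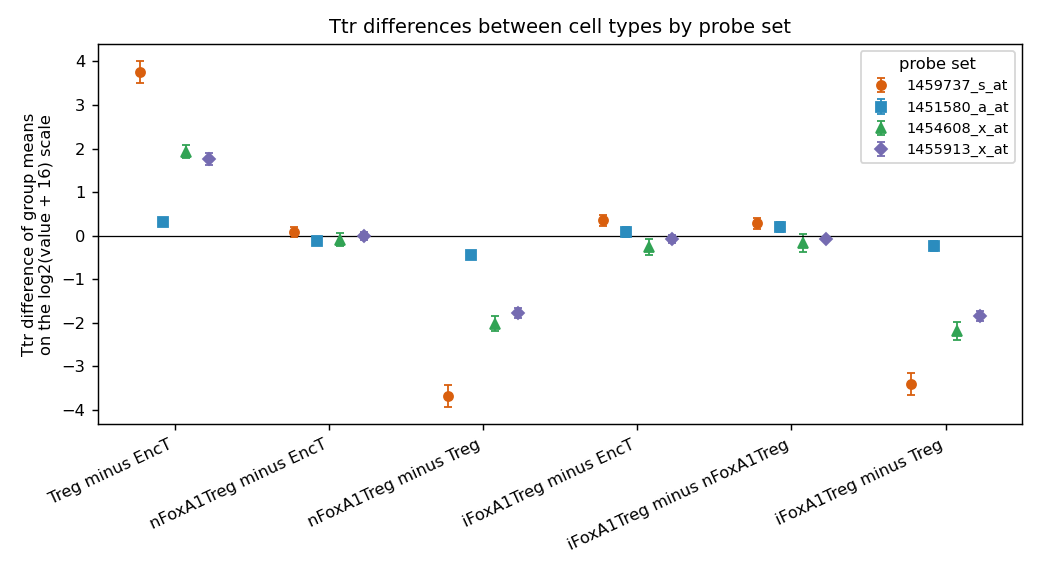
Difference of group means of Ttr on the log2(value + 16) scale for the 6 pairs of groups, with 1 marker per probe set and bars of 1 pooled SD (n = 3 per group). The differences that involve Treg are far from 0 for 3 probe sets, up to 3.76 for Treg minus EncT, while 1451580_a_at gives 0.33 there and the nFoxA1Treg minus EncT differences lie between -0.11 and 0.075.

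The separation of Treg in Ttr was set beside that of every other gene past the filter. For each gene the highest of the 9 other arrays was subtracted from the lowest Treg array. Of 12609 genes, 54 (0.428%) had all 3 Treg arrays on top. Ttr had a gap of 3.92, followed by Timp1, an inhibitor of matrix metalloproteinases, at 0.29, Wwox at 0.22 and Cux1 at 0.19, and Ttr was the 1 gene with a gap of at least 1. On the log2(value + 16) scale the gap of Ttr was 2.97, and it again ranked first. This ranking uses the pattern for which Ttr was chosen and describes its size. Ttr had passed the filter only through the Treg arrays, and of its 4 probe sets 1 passed.

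**Figure D3:**
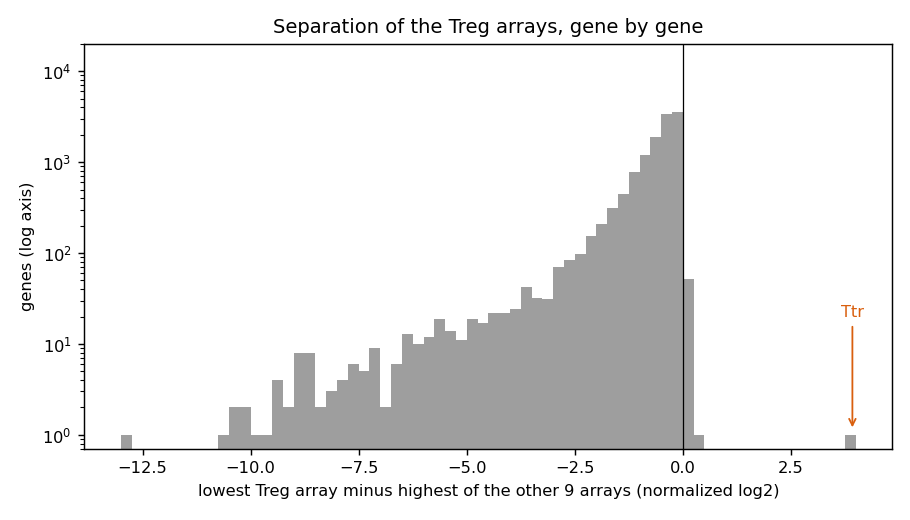
Number of genes (log axis) by the gap between the lowest Treg array and the highest of the 9 other arrays, in normalized log2, for 12609 genes. Bars are 0.25 wide. Genes right of 0 have all Treg arrays on top, and Ttr stands alone at 3.92.

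The genes that handle thyroid hormone, the main ligand of transthyretin, were examined next, from a list of 26 genes of which 22 had a probe set of their own and 18 passed the filter. In Treg against EncT 2 of the 18 rose and 0 fell (adjusted p under 0.05, limma), where 6.23% of all tested genes rose and 10.3% fell. In nFoxA1Treg against EncT 2 rose and 0 fell, where 8.46% of all genes rose and 11.2% fell. In both contrasts the genes were Slc7a5 and Slc3a2, the light and heavy chain of the amino acid exchanger LAT1, which also moves thyroid hormone across the plasma membrane. Slc7a5 was 8.22, 8.34 and 8.38 in Treg, against 6.72, 7.31 and 7.07 in EncT (normalized log2). Its 3 nFoxA1Treg arrays lay above all 3 Treg arrays, at 8.68, 8.53 and 8.49, where 11.2% of all tested genes did not overlap. The arrays of Treg and nFoxA1Treg lay above all EncT arrays. The rise was 1.28 (SE 0.12, adjusted p = 4.15e-05) in Treg and 1.53 (SE 0.12, adjusted p = 8.2e-06) in nFoxA1Treg. Slc3a2 averaged 9.80 ± 0.043 in nFoxA1Treg, 9.66 ± 0.052 in Treg and 8.98 ± 0.12 in EncT (n = 3 each, SD), a rise of 0.82 (adjusted p = 8.34e-06) in nFoxA1Treg and of 0.68 (adjusted p = 5.9e-05) in Treg. So the exchanger genes rose in both regulatory groups, whereas Ttr was high in Treg alone.

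The other 16 members of the thyroid hormone list past the filter were not called in either contrast. Among them, Slc7a8 and Slco1a4 passed the filter through the arrays labelled iFoxA1Treg. Over the 18 members the median difference was -0.039 in Treg against EncT, beside -0.0038 over all genes, and -0.039 in nFoxA1Treg against EncT, beside -0.0045. Thra, a nuclear receptor for thyroid hormone, was 5.86 ± 0.11 in Treg and 5.77 ± 0.11 in EncT, a difference of 0.09 (adjusted p = 0.735). Dio2, the deiodinase that makes the active hormone from thyroxine, was 7.41 ± 0.18 in Treg and 7.24 ± 0.14 in EncT (adjusted p = 0.3). Klf9, a target of thyroid hormone, was 7.02 ± 0.087 in Treg and 7.11 ± 0.088 in EncT (adjusted p = 0.605). Dio2 and Klf9 were picked after their values were seen. In nFoxA1Treg against Treg 0 of the 18 members were called.

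Retinol transport, the other task of transthyretin in blood, was represented by 27 genes, of which 24 had a probe set and 12 passed the filter. In Treg against EncT 0 rose and 1 fell, beside 6.23% and 10.3% of all tested genes. In nFoxA1Treg against EncT 0 rose and 1 fell, beside 8.46% and 11.2% of all tested genes. Rbp4, the retinol carrier that binds transthyretin, was 4.41, 4.78 and 4.36 in Treg, against 4.54, 4.70 and 4.41 in EncT. Those arrays overlapped, and the difference was -0.04 (adjusted p = 0.927). In nFoxA1Treg Rbp4 was 4.27 ± 0.20, a difference of -0.28 from EncT (adjusted p = 0.309). Stra6, the receptor that takes retinol from Rbp4, was below the filter level in every group. Rdh11, a retinal reductase, averaged 7.47 ± 0.03 in Treg and 7.70 ± 0.055 in EncT and fell by 0.23 (adjusted p = 0.0435). That call was lost with the replicate number as a block (adjusted p = 0.0514) and without the arrays labelled iFoxA1Treg (adjusted p = 0.0614). Rarg, a retinoic acid receptor, averaged 6.47 ± 0.23 in nFoxA1Treg and 7.38 ± 0.49 in EncT, with a difference of -0.91 (adjusted p = 0.0161). In Treg against EncT the Rarg difference was -0.65 (adjusted p = 0.072). The median difference of the 12 members was -0.12 in Treg and -0.090 in nFoxA1Treg against EncT.

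The liver-enriched factors known to act on Ttr were mostly dim, with 8 of 10 measured and 5 past the filter. In Treg against EncT 0 rose and 1 fell, where 16.5% of all tested genes were called in either direction, and in nFoxA1Treg against EncT 0 of the 5 were called, where 19.6% of all were. Foxa1, the factor for which the FoxA1 regulatory groups are named, lay below the filter level, with 1.75, -1.48 and 2.19 in the arrays labelled iFoxA1Treg, 2.01, 2.39 and 2.54 in nFoxA1Treg, 2.85, 0.82 and 2.22 in Treg and -7.91, -8.41 and -0.32 in EncT. All Treg and nFoxA1Treg arrays lay above all EncT arrays for Foxa1, while the difference was 0.33 in Treg and 0.37 in nFoxA1Treg on the log2(value + 16) scale. The EncT values were all negative, where noise at the floor weighs most. Of all 18193 genes with no filter, 11.5% had Treg above all EncT arrays and 12.8% had nFoxA1Treg above them. Foxa1 levels of nFoxA1Treg and Treg overlapped, where those of Ttr did not. Foxa2 was at 2.23 ± 1.1 in Treg and 2.89 ± 0.32 in EncT, also below the filter level. Hnf4a, a nuclear receptor of liver cells, was 4.92 ± 0.12 in Treg and 5.12 ± 0.10 in EncT (adjusted p = 0.314).

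Among the C/EBP genes, Cebpd was the member that fell, at 4.51, 3.85 and 4.14 in Treg and 4.66, 5.06 and 5.09 in EncT, a difference of -0.77 (SE 0.18, adjusted p = 0.0118). Its nFoxA1Treg arrays, at 4.31, 4.64 and 4.31, overlapped with those of Treg and had a difference of -0.52 from EncT (adjusted p = 0.0577). Cebpa was 3.95 ± 0.16 in Treg and 4.05 ± 0.22 in EncT (adjusted p = 0.774). Cebpb was 10.80 ± 0.15 in the arrays labelled iFoxA1Treg, 7.72 ± 0.054 in nFoxA1Treg, 7.64 ± 0.11 in Treg and 7.69 ± 0.32 in EncT. Cebpb was thus highest in the arrays labelled iFoxA1Treg, where cell makeup, sex and treatment cannot be told apart, and similar in the other groups. What part, if any, these liver-enriched factors had in the Ttr level was not tested.

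Receptors, folding partners and clearance genes of transthyretin formed a list of 12, all of which passed the filter. In Treg against EncT 2 rose and 0 fell, where the share of all tested genes that rose was 6.23%. In nFoxA1Treg against EncT 2 rose and 0 fell, where that share was 8.46%. Hspa5, the BiP chaperone of the endoplasmic reticulum, was 11.41, 11.35 and 11.29 in Treg and 11.38, 11.41 and 11.40 in nFoxA1Treg, against 11.03, 10.89 and 10.93 in EncT. It rose by 0.40 in Treg (SE 0.05, adjusted p = 3.6e-04) and by 0.45 in nFoxA1Treg (SE 0.05, adjusted p = 1.08e-04), without overlap in either. Lrpap1, a chaperone of lipoprotein receptors, was 8.78 ± 0.04 in Treg and 8.51 ± 0.19 in EncT (adjusted p = 0.037), a call that was lost when the fit left out the arrays labelled iFoxA1Treg. Dnajb11, a partner of BiP, was 9.18 ± 0.057 in nFoxA1Treg and 8.90 ± 0.20 in EncT (adjusted p = 0.0285). The endocytic receptor Lrp2 (megalin), which takes up transthyretin in kidney, was 4.74 ± 0.14 in Treg and 4.62 ± 0.12 in EncT (adjusted p = 0.853). Lrp1, another receptor of the family, was 4.51 ± 0.15 in Treg and 4.69 ± 0.26 in EncT (adjusted p = 0.704). In nFoxA1Treg against Treg, 0 members of the retinol, liver factor and receptor lists were called.

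**Figure D4:**
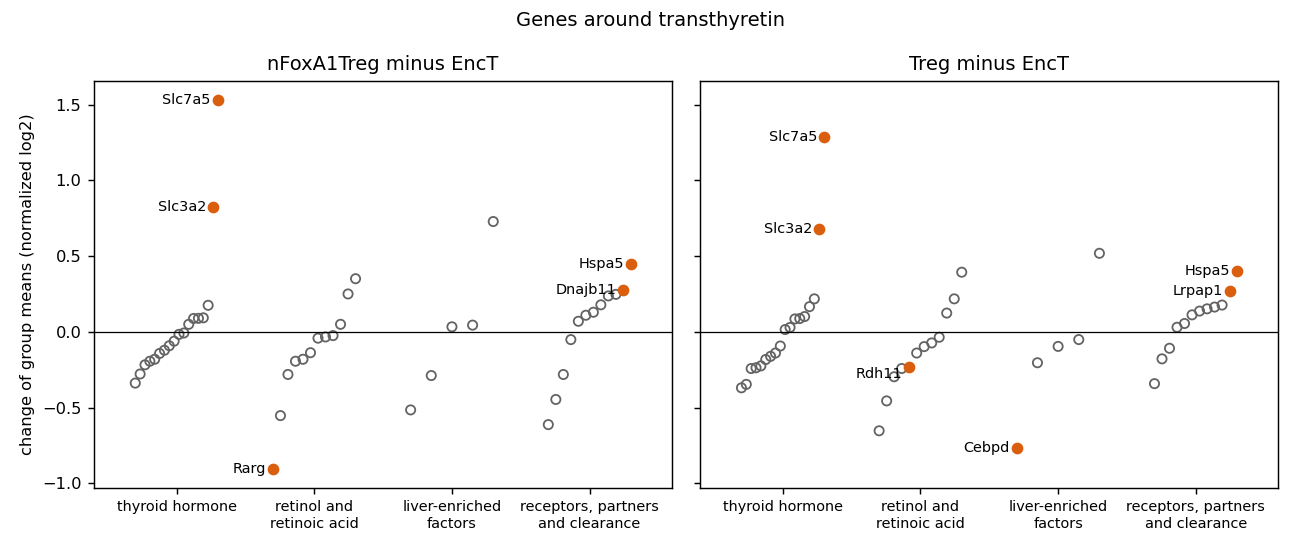
Change of group means in normalized log2 for every member past the filter of the 4 lists around transthyretin, nFoxA1Treg minus EncT on the left and Treg minus EncT on the right. Filled points have an adjusted p under 0.05 (limma) and open points do not. Slc7a5 and Slc3a2 are the highest points in both panels, at 1.53 and 0.82 in nFoxA1Treg and 1.28 and 0.68 in Treg.

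Markers of cells that make much transthyretin were measured beside Ttr. Of 26 choroid plexus markers 24 had a probe set and 11 passed the filter, and 1 rose and 0 fell in Treg against EncT, beside 6.23% and 10.3% of all tested genes. That member was Cab39l, an adaptor of the kinase Stk11, at 7.88 ± 0.027 in Treg and 7.46 ± 0.14 in EncT (adjusted p = 0.00757). It was as high in nFoxA1Treg, at 7.88 ± 0.13 (adjusted p = 0.00585 against EncT), where Ttr was low. The choroid plexus markers Kl (3.59 ± 0.11), Aqp1 (1.97 ± 1.0), Otx2 (0.25 ± 2.0) and Kcne2 (-1.77 ± 6.3), picked after their values were seen, lay below the filter level in Treg. Of the 24 markers, 10 had means above that level in Treg, as did 10 in nFoxA1Treg and 10 in EncT. Without the filter, the Treg arrays lay above all EncT arrays in 2 of 24 and below them in 1, against 11.5% of all 18193 genes with Treg above. Folr1 (4.64 ± 0.39 in Treg and 4.56 ± 0.11 in EncT) and Clic6 (5.51 ± 0.13 in Treg and 5.22 ± 0.12 in EncT) were not called. The summed linear level of the 24 markers was 588 to 637 in Treg, 572 to 617 in nFoxA1Treg and 530 to 568 in EncT. The Treg range thus lay above the EncT range and overlapped the nFoxA1Treg range. Linear sums weigh the brightest members most, and the brightest here was Cab39l, which itself rose, so the other markers need not have risen. The part of these markers in the Ttr level was not tested.

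Hepatocyte and islet markers showed no rise with Ttr that passed the test. Of 6 hepatocyte markers and 5 islet markers past the filter, 0 were called in Treg against EncT, and without the arrays labelled iFoxA1Treg 1 of 5 hepatocyte markers fell. The liver's main secreted protein gene, Alb, was 2.27 ± 0.39 in Treg and 2.46 ± 0.13 in EncT, below the filter level. The summed hepatocyte level was 335 to 374 in Treg, against 349 to 374 in EncT. It was 1364 to 1596 in the arrays labelled iFoxA1Treg, where Hp was 9.89 ± 0.085. For islets the sum was 240 to 256 in Treg, within the EncT range of 194 to 266. Ins2 was 4.31 ± 0.70 in Treg and 4.19 ± 0.50 in EncT (adjusted p = 0.857).

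Neuronal markers stood above EncT in a larger number of genes. With no filter, the Treg arrays lay above all EncT arrays in 7 of 20 neuronal genes and below them in 0, against 11.5% of all 18193 genes with Treg above. For nFoxA1Treg above EncT it was 4 of 20, against 12.8% of all genes. Their summed level was 461 to 537 in nFoxA1Treg, 517 to 596 in Treg and 376 to 460 in EncT, so Treg and nFoxA1Treg both lay above EncT and overlapped each other. Group means ran Treg over nFoxA1Treg over EncT in 11 of the 20 genes, against 17.3% of all genes. The nFoxA1Treg arrays lay below all Treg arrays in 2 of 20 and above them in 1, against 4.74% of all genes with nFoxA1Treg below. The 1 neuronal gene of 10 past the filter that was called was Tubb2b, a tubulin of developing neurons, at 4.70, 4.35 and 5.46 in Treg, against 3.57, 1.86 and 2.27 in EncT. It rose by 2.27 (SE 0.41, adjusted p = 0.00361) in Treg and by 1.35 (SE 0.41, adjusted p = 0.0367) in nFoxA1Treg, where its values were 3.36, 3.81 and 4.57. Tubb2b was 7.82 ± 0.10 in the arrays labelled iFoxA1Treg and passed the filter through them. Without those arrays its mean was 3.81, below the filter level of 4.07 in the 9 arrays, so it was not tested there. The neuronal genes called in Treg against EncT without those arrays were Map2 (adjusted p = 0.042) and Gap43 (adjusted p = 0.041), 2 of 11. Zic1, a factor of cerebellar granule cells picked after its values were seen, lay below the filter level over all arrays. It was 3.10, 4.89 and 4.98 in nFoxA1Treg, 5.18, 5.14 and 5.72 in Treg and 1.70, -1.32 and 1.53 in EncT. The arrays of these 3 groups did not overlap, and unlike Ttr it was high in 2 of 3 nFoxA1Treg arrays. What part, if any, RNA of neural tissue had in the Ttr level was not tested.

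Glial, blood and stromal marker lists followed other patterns. Their counts in Treg against EncT stand beside the 6.23% of all tested genes that rose and the 10.3% that fell. Among astrocyte and oligodendrocyte markers 1 of 7 rose (Apoe, by 2.02, adjusted p = 0.0191) and 1 fell (Mbp, by 0.26, adjusted p = 0.0215) in Treg against EncT, while Gfap was 5.02 ± 0.19 in Treg and 4.83 ± 0.12 in EncT (adjusted p = 0.549). Apoe averaged 10.19 ± 0.084 in the arrays labelled iFoxA1Treg, through which it passed the filter, 3.15 ± 0.80 in Treg and 1.13 ± 1.3 in EncT. Its Treg and EncT means were both below the filter level, and the difference was 0.45 on the log2(value + 16) scale. The summed level of these glial markers was 973 to 989 in Treg, below the 1102 to 1147 of EncT. Mbp, with a mean of 9.79 over the 9 other arrays, was by far the brightest member and itself fell. The sum therefore says little of the other glial markers. Macrophage markers fell in 4 of 12, with a summed level of 249 to 274 in Treg and 426 to 551 in EncT. Among those called, Lyz2 (3.06) and Fcgr3 (2.47) averaged below the filter level over the 9 other arrays. They passed it through the arrays labelled iFoxA1Treg. For B cells 0 of 8 markers were called. Of these, Cd79b, Ms4a1, Blk and Blnk averaged below the filter level over the 9 other arrays and passed it through the arrays labelled iFoxA1Treg. Without those arrays 0 of 4 B cell markers were called. Of 4 erythroid markers 0 rose and 1, the haemoglobin gene Hbb-b2, fell by 2.41 (adjusted p = 7.06e-04). Fibroblast and endothelial markers rose in 1 of 6, Col1a2, by 0.88 (adjusted p = 0.041), a call that was lost without the arrays labelled iFoxA1Treg. T cell markers fell in 3 of 11 (Cd247, Zap70 and Bcl11b), and their summed level was 20902 to 20961 in Treg and 21748 to 22776 in EncT. Of 13 regulatory T cell genes, Ctla4 rose by 0.66 (adjusted p = 2.15e-04) and Cd274, which encodes PD-L1, fell by 0.33 (adjusted p = 0.018). Without the arrays labelled iFoxA1Treg, macrophage markers fell in 1 of 7, glial markers rose in 0 and fell in 1 of 5, T cell markers fell in 4 of 11, and of 13 regulatory T cell genes 1 rose and 2 fell.

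**Figure D5:**
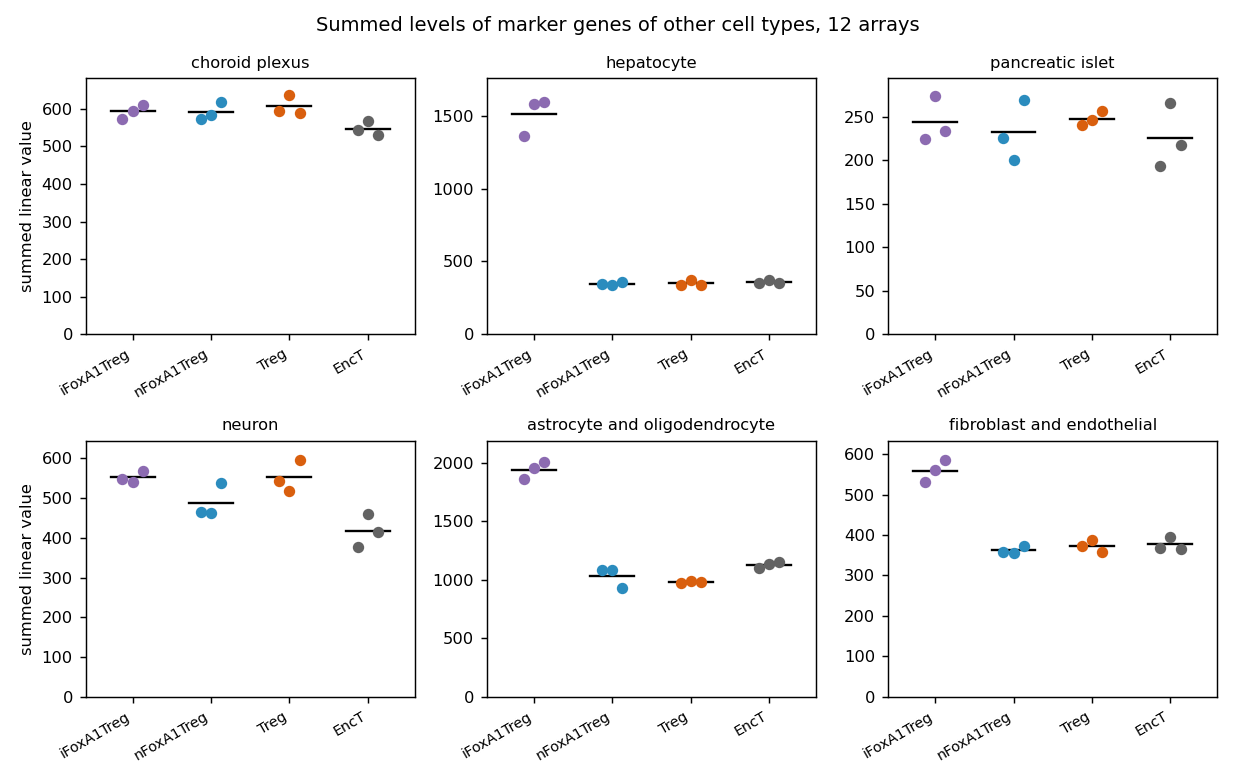
Summed linear values of the members of 6 marker lists on each of the 12 arrays, with black lines at the group means. Linear sums weigh the brightest members most. Choroid plexus sums are 588 to 637 in Treg and 530 to 568 in EncT, neuron sums are 517 to 596 in Treg and 376 to 460 in EncT, and hepatocyte sums are high only in the arrays labelled iFoxA1Treg (1364 to 1596).

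Genes with a pattern like that of Ttr were looked for by Pearson correlation with 1459737_s_at across arrays, among genes whose group means spanned at least 1 log2. All values come from the same arrays and the few groups dominate them, so they are descriptive. Over 12 arrays and 3906 genes, the closest was Timp1 (r = 0.64), at 3.60 ± 0.61 in the arrays labelled iFoxA1Treg, 4.69 ± 0.19 in nFoxA1Treg, 5.29 ± 0.17 in Treg and 4.29 ± 0.27 in EncT. It was followed by Amigo1 (0.59), Fmod (0.56), Cox7a1 (0.54), Chid1 (0.53), Cox7c (0.52), Itgae (0.51) and Cnih2 (0.51). The least alike were Treml2 (-0.68), Rapgef3 (-0.72) and Efhc2 (-0.74). No gene among the 8 closest was in the corresponding 8 by Spearman's rho (0 shared). On the log2(value + 16) scale 2 were shared, Cox7c and Itgae. The others did not span 1 log2 on that scale and so were not ranked there. Their r on it ran from 0.59 (Chid1) to 0.74 (Timp1).

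Over the 9 arrays of nFoxA1Treg, Treg and EncT, the closest of 183 genes was Cxcl10, an interferon-induced chemokine (r = 0.90, rho = 0.97). Its values were 3.55, 5.04 and 5.09 in nFoxA1Treg, 6.10, 6.17 and 6.24 in Treg and 3.60, 3.16 and 3.82 in EncT. Treg was high in every array for Cxcl10 as for Ttr, but nFoxA1Treg replicates 2 and 3 lay between Treg and EncT. In the arrays labelled iFoxA1Treg Cxcl10 was 10.93 ± 0.098, far above Treg, where Ttr was low. The next were Tubb2b (0.72), Plpp3 (0.70), Amigo1 (0.59), Rgs1 (0.58), Apoe (0.57), Ngp (0.56) and Fmod (0.56), and the least alike were Pik3ap1 (-0.75), Abcb1a (-0.77) and Efhc2 (-0.77). Of the 8 closest, 4 (Tubb2b, Plpp3, Apoe and Ngp) averaged below the filter level over the 9 arrays. They passed the filter through the arrays labelled iFoxA1Treg, with means of 7.82 for Tubb2b, 7.85 for Plpp3, 10.19 for Apoe and 12.12 for Ngp. Of the 8 closest genes 3 were shared with the corresponding list by Spearman's rho and 3 with that on the log2(value + 16) scale. The 3 on the latter scale were Cxcl10, Tubb2b and Rgs1. The others did not span 1 log2 on that scale and so were not ranked there.

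The measured genes next to Ttr on chromosome 18 did not share its level in Treg. On the side of lower coordinates these were Dsg1a, Dsg1b and Dsg2, genes of desmosomal cadherins. On the other side were B4galt6, Gm31437 and Trappc8. Dsg2 was 5.98 ± 0.18 in Treg and 5.81 ± 0.11 in EncT (adjusted p = 0.651). B4galt6, a galactosyltransferase of glycolipid synthesis, was 4.17 ± 0.14 in Treg and 3.90 ± 0.38 in EncT (adjusted p = 0.478). Trappc8, a subunit of a vesicle-tethering complex, was 9.05 ± 0.022 in Treg and 9.11 ± 0.056 in EncT (adjusted p = 0.403). The 3 other neighbours lay below the filter level, with Dsg1a at 2.39 ± 0.29 in Treg and 1.81 ± 0.60 in EncT.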

How the data were processed

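RNA of 12 samples was hybridised to Affymetrix Mouse430_2 arrays after Trizol extraction, DNase treatment and biotin labelling of cRNA, per the labels' protocols. The authors deposited log2 probe set values with no offset for 45037 probe sets. The submitters' processing notes name PLIER, which turns the probes of a set into a single value. Its version, and whether arrays were normalized to each other, is not given in the sources used here. The range of the values gave the log base. Gene names came from the array annotation (34945 had 1 gene, 932 several and 9160 none), and 34741 of those with 1 gene matched the reference gene table, with 0 symbols changed.

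Array medians of the deposited values ran from 4.64 to 4.84, a span of 0.202 log2, and values were quantile normalized over 12 arrays. Probe sets in the upper 60% by mean (level 4.05) were kept, and the brightest probe set with 1 gene stood for its gene, which left 12609 genes. Differences were fitted with limma 3.58.1 under R 4.3.3, by lmFit on the 4 group means (8 residual degrees of freedom) and eBayes with an intensity trend, and two-sided p-values were adjusted by Benjamini-Hochberg over all genes of a comparison, with 0.05 as the threshold. Summed linear levels add 2 to the power of the normalized value over the members of a list, so the brightest members weigh most. Precision is limited by having 3 arrays in a group. The fit was tested on simulated data, and figures were drawn with matplotlib 3.10.9.

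Ttr, the 4 pathway lists and the 11 marker lists were chosen with earlier results of these data known. Named genes were all Ttr probe sets, the 8 genes most and 3 least correlated with Ttr in each set of arrays, called members of the pathway lists, a fixed set of factors and carriers, the brightest markers and any called choroid plexus, hepatocyte or islet marker, the nearest measured neighbours, and genes that check the labels. Other named genes were picked after their values were seen. Numbers were not taken to pair samples, since in no 2 groups did all 3 same-numbered pairs correlate above 0.1 (range -0.163 to 0.166; all 3 were above 0 for Treg and EncT). These pairing correlations are on another measure than the correlations of 0.815 to 0.847 between whole arrays of different groups. Alternatives were the values as deposited, median centring, log2(value + 16), no filter, other probe sets, array weights, a replicate block, fewer groups and leaving out each replicate.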

Additional observations from a re-analysis of the deposited data

How the results depend on the processing

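The Ttr differences kept their direction and stayed within the replicate spread with the values as deposited, with median centring and without the arrays labelled iFoxA1Treg (the last for the 3 pairs that do not use them). Without each replicate in turn they ran from 5.41 to 5.79 for Treg minus EncT, -5.51 to -5.10 for nFoxA1Treg minus Treg, 0.057 to 0.51 for nFoxA1Treg minus EncT, 0.85 to 1.23 for iFoxA1Treg minus EncT, 0.54 to 0.95 for iFoxA1Treg minus nFoxA1Treg and -4.74 to -4.38 for iFoxA1Treg minus Treg. On the log2(value + 16) scale, which draws in dim values by construction, they were 3.76 for Treg minus EncT, -3.68 for nFoxA1Treg minus Treg, 0.36 for iFoxA1Treg minus EncT, 0.28 for iFoxA1Treg minus nFoxA1Treg and -3.40 for iFoxA1Treg minus Treg. Probe set 1451580_a_at gave 0.61 for Treg minus EncT, -0.85 for nFoxA1Treg minus Treg, -0.24 for nFoxA1Treg minus EncT (reversed), 0.17 for iFoxA1Treg minus EncT and -0.43 for iFoxA1Treg minus Treg. Probe set 1454608_x_at gave 3.37, -3.76 and -0.38 (reversed) for the first 3 of these pairs, -2.42 for iFoxA1Treg minus EncT (reversed), -2.04 (-2.035) for iFoxA1Treg minus nFoxA1Treg (reversed) and -5.79 for iFoxA1Treg minus Treg. Probe set 1455913_x_at gave 10.99, -6.32 and 4.67 for those first pairs, -2.92 for iFoxA1Treg minus EncT (reversed), -7.59 for iFoxA1Treg minus nFoxA1Treg (reversed) and -13.91 for iFoxA1Treg minus Treg, where most arrays outside Treg lay near the floor. Why the probe sets differ was not tested.

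Genes called numbered 1134 for Treg against EncT and 1221 for nFoxA1Treg against EncT with only the arrays of the 2 groups, and 4196 and 4721 with array weights, against 2084 and 2474 in the fit reported. Without each replicate they ran from 1013 (without Treg replicate 2; 1068 without Treg replicate 3) to 2716 for Treg against EncT, and from 1517 (without nFoxA1Treg replicate 2) to 3010 for nFoxA1Treg against EncT. Higher and lower calls in Treg against EncT were 785 and 1299 as reported, and 429 and 1293 with median centring. For nFoxA1Treg against Treg, calls numbered 3 on the log2(value + 16) scale, 4 with no filter, 10 with array weights, 2 with the replicate block, and 0 to 12 without each replicate, beside 1 in the fit reported. The 0 arose without Treg replicate 1, 2 or 3 (312, 308 and 538 genes at an unadjusted p under 0.05), where the mean of Ttr fell to 3.91, 3.84 and 3.89, below the filter, so that it was not tested. With the probe sets of the 12 arrays kept, an alternative chosen after seeing the data, 1 gene was called each time. With nFoxA1Treg replicates 1, 2 and 3 left out, calls numbered 4, 3 and 12.

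With the replicate number as a block, 1880 genes were called for Treg against EncT and 2343 for nFoxA1Treg against EncT, and the retinol list had 0 called members in the first contrast (Rdh11 was lost) and 3 in the second (Rarg, Rxrb and Rdh5, all lower). In the second contrast the block also gave 3 called members of the thyroid hormone list (Rxrb added), 2 of the choroid plexus list (Rdh5 added), 1 of the erythroid list (Hba-a2 lost) and 4 of the regulatory T cell list (Ikzf4 lost). List counts other than these were as reported. On the measure used for pairing, each Treg array correlated best with the EncT array of its own number (0.166, 0.13 and 0.0902). This is a hint from the data that the design does not state.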
